A study of Mus musculus with 3 samples.

Results

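Chromatin accessibility was examined around 10 genes of the BMP pathway: the ligand genes Bmp2, Bmp4 and Bmp7, the extracellular antagonist genes Nog and Chrd, the inhibitory SMAD genes Smad6 and Smad7, and the target genes Id1, Id2 and Id3. The genes were taken by name from the 21911 protein-coding genes of GENCODE M21. For each gene, every peak that overlapped the gene body or the 50 kb on either side was kept. This gave 131 of 129843 peaks (SOX2-ON), 138 of 131520 (SOX2-OFF) and 164 of 130348 (CEpiLC). Peaks of the 3 lists that overlapped were merged, and 204 of 219473 merged regions in the genome lay in the 10 windows. Of these, 109 were intergenic, 45 lay in introns and 50 touched an exon. The gene itself was overlapped by 55 of them, and another gene only by 40.

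The data were ATAC-seq peak lists, in which a transposase marks open DNA, from mouse embryonic stem (ES) cells of the HM1 line (strain 129). There were 3 samples of 50000 cells, 1 in each of 3 groups, all collected at 72 h. In all of them differentiation took place in FGF and LGK974, which blocks WNT secretion, and CHIR99021, which activates WNT signalling, was added after 2 days. The CEpiLC sample was wild type, and these conditions give caudal epiblast-like cells. SOX2-ON and SOX2-OFF both came from the SOX2 TetON line, labelled Sox2-/-, in which the endogenous Sox2 gene had been disrupted and a doxycycline-inducible Sox2 transgene placed at the Hprt locus of cells with rtTA at Rosa26. This line was kept in 1 µg/ml doxycycline before differentiation. Doxycycline was then maintained in SOX2-ON and withdrawn in SOX2-OFF. Within the engineered line, the contrast of doxycycline kept against doxycycline removed asks what sustained SOX2 does, while contrasts with CEpiLC also differ in the line. SOX2-ON and SOX2-OFF also differ in the drug itself, which cannot be told apart from SOX2 here. With 1 sample per group there was no replicate check, no test could be made, and every difference below is a difference between 3 peak lists.

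BMPs are secreted proteins of the TGFβ superfamily. They bind pairs of receptor kinases that phosphorylate SMAD1, SMAD5 and SMAD9, which enter the nucleus with SMAD4 and switch on genes such as the Id genes. Noggin and chordin hold BMPs outside the cell, and SMAD6 and SMAD7 act inside it as induced brakes on the same pathway. In ES cells BMP signalling is known to support self-renewal, in part through ID proteins, and in the gastrulating embryo it patterns the primitive streak and the mesoderm that leaves it.

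Each list was used through ranks, because peak scores grow with sequencing depth and the depth of these libraries is unknown here. Rank 1 is the peak with the highest −log10 p of its list, and a strong peak is one of the best 20000. Values given 3 at a time follow the order SOX2-ON, SOX2-OFF, CEpiLC. At rank 20000 the −log10 p was 26.4 (SOX2-ON), 21.2 (SOX2-OFF) and 10.6 (CEpiLC). The engineered line had an excess of peaks on chromosomes 6 and 8 and CEpiLC on chromosome 11, which carries Nog. Peaks per Mb on chromosome 11 were 1.45, 1.49 and 3.98 times the median of 16 other autosomes in SOX2-ON, SOX2-OFF and CEpiLC. As a check of the labels, a peak lay within 1 kb of a start of T, Cdx2 and Nkx1-2 (caudal epiblast and streak), Pou5f1 and Fgf5 (epiblast) and Klf2 and Nr5a2 (naive pluripotency) in every list. The fibroblast genes Col1a1 and Thy1 and the targeted gene Sox2 had one in every list too. A peak at a start therefore did not separate the states or show the loss of the endogenous Sox2 product. The start peak of T ranked 21225 (SOX2-ON), 11301 (SOX2-OFF) and 13877 (CEpiLC), and that of Cdx2 ranked 20090, 13713 and 10000. That of Nkx1-2 ranked 30054, 24237 and 17717. The epiblast markers ran in opposite orders, with Pou5f1 at 8255, 10220 and 13680 and Fgf5 at 20193, 13071 and 11288. The naive markers had no matching order. Klf2, on chromosome 8 with its excess of peaks in the engineered line, ranked 5744, 5037 and 7231, best in SOX2-OFF. Nr5a2 ranked 16478, 17652 and 14790, best in CEpiLC.

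All 10 genes had a peak within 1 kb of an annotated transcript start in all 3 lists. Over all protein-coding genes the share was 74.9% (SOX2-ON), 75.8% (SOX2-OFF) and 76.3% (CEpiLC). The start peaks ranked high: the median rank over the 10 genes was 12010 (SOX2-ON), 13084 (SOX2-OFF) and 12512 (CEpiLC). In SOX2-ON 10 of the 10 were strong, and in SOX2-OFF and CEpiLC 9 were, the exception being Id1. The list that ranked the start peak best was SOX2-ON for 8 genes (Bmp4, Bmp7, Chrd, Smad6, Smad7, Id1, Id2 and Id3), CEpiLC for 2 (Bmp2 and Nog) and SOX2-OFF for 0. Among the 15729 coding genes with a start peak in all 3 lists, the corresponding shares were 34.7% for SOX2-ON, 37.4% for CEpiLC and 27.9% for SOX2-OFF. This count of best lists was not planned in advance, so the contrast with these shares is a description only. The start peaks of Bmp4, Nog, Chrd and Smad7 also lay within 1 kb of a start of another annotated gene. The shifts in rank were small, and the gap was 2-fold or more only for Smad6 and Smad7 against CEpiLC.

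**Figure D1:**
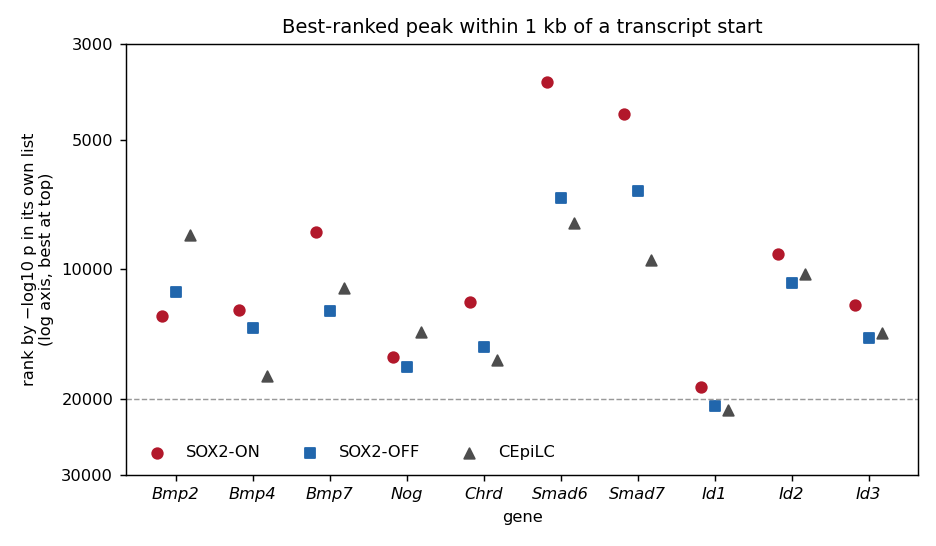
Rank of the best-ranked peak within 1 kb of a transcript start (log axis, best at the top) for the 10 genes, with 1 point per peak list and a dashed line at rank 20000. The SOX2-ON point is highest for 8 genes, Smad6 and Smad7 have the best ranks in each list except that Bmp2 ranks above Smad7 in CEpiLC, and Id1 is the only gene with points under the line.

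The ligand genes lay in windows of very different density. The window of Bmp2, a ligand of early mesoderm and bone, held 4, 3 and 2 peaks in SOX2-ON, SOX2-OFF and CEpiLC, against medians of 11, 11 and 12 over all coding genes. Of its 4 regions 1, the start region, was in all 3 lists, a class that held 27.0% of all regions in the genome. That start peak ranked 12863 (SOX2-ON), 11292 (SOX2-OFF) and 8315 (CEpiLC), so its order was the reverse of the one at Bmp4, Chrd, Smad6, Smad7 and Id1. The best-ranked region of the window that a list lacked, chr2:133585937-133586735, was intergenic and centred 34177 bp downstream of the start. It ranked 61503 in SOX2-ON and 26205 in SOX2-OFF and was absent from CEpiLC.

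Bmp4, the ligand best known for mesoderm and germ cell induction from the epiblast, had 8, 8 and 6 peaks. Its best start peak lay at internal transcript starts, 3298 bp inside the gene, and ranked 12443 (SOX2-ON), 13666 (SOX2-OFF) and 17710 (CEpiLC). The region at the most upstream start, chr14:46390216-46390900, ranked lower in each list, at 33723, 47495 and 38462.

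The window of Bmp4 also held the 1 strong peak of the 10 windows that was missing from another list. That count rests on where strong ends: it was 0 at the best 10000 ranks, and with lists reranked without chromosomes 6, 8 and 11 it was 3 for SOX2-ON, with Id2 and Id3 added, and 2 for CEpiLC, at Id1 and Bmp7. No genome share was taken at these other settings. A peak was called missing when no single peak of the other list covered 10% of its length. This peak, chr14:46412311-46413224, was in SOX2-ON only, and over the whole genome 5.04% of strong SOX2-ON peaks were missing from SOX2-OFF and 8.60% from CEpiLC. It was 914 bp wide, intergenic, and centred 22099 bp upstream of the start of Bmp4, which was the nearest coding start. It ranked 12482 of its list with a fold enrichment of 4.23 over local background and a −log10 p of 58.5, and so stood just below the Bmp4 start peak in that list. Neither of the other lists had a peak within 1 kb: the nearest was 1318 bp away in SOX2-OFF and 1336 bp away in CEpiLC. That neighbouring region, centred 19951 bp upstream, was weak in all 3 lists, with ranks of 46612 (SOX2-ON), 41903 (SOX2-OFF) and 113961 (CEpiLC).

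**Figure D2:**
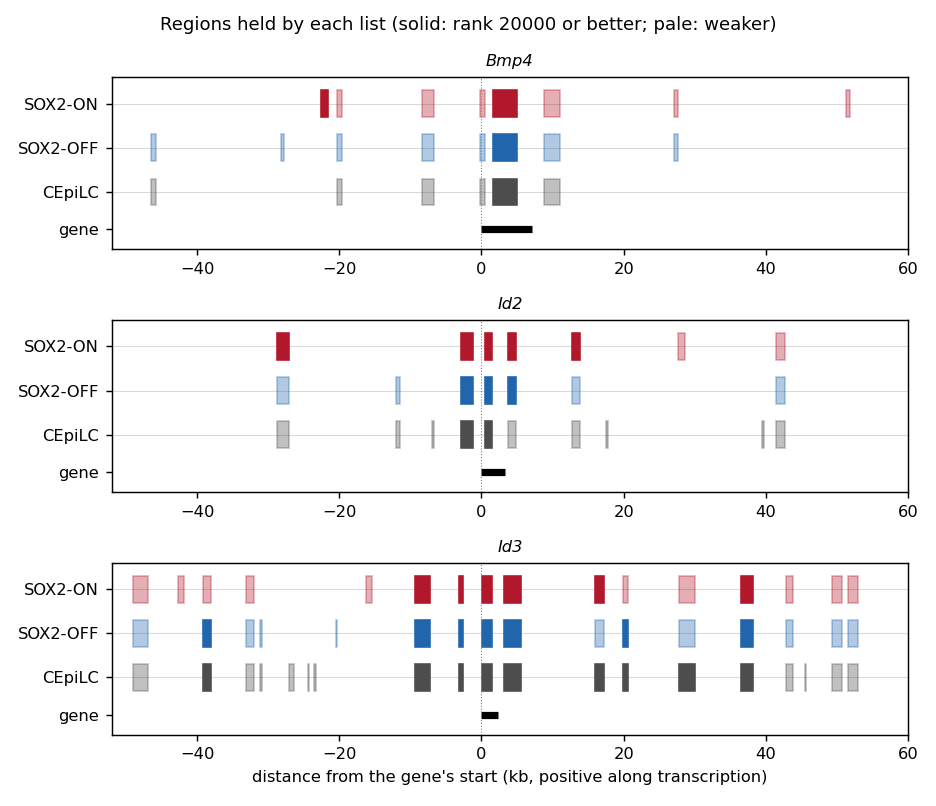
Merged regions within the windows of Bmp4, Id2 and Id3 by distance from the gene's start (kb, positive along transcription), with a row for each peak list and the gene as a black bar. Boxes span the merged region, solid for ranks of 20000 or better and pale for weaker ones: the solid SOX2-ON box 22 kb upstream of Bmp4 has no counterpart in the rows under it, and the box 28 kb upstream of Id2 is solid in SOX2-ON only.

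The central 200 bases of this SOX2-ON region, chr14:46412668-46412867, and of the best-ranked SOX2-ON-only regions of Id2 and Id3 are shown because they were the 3 best-ranked stretches that only SOX2-ON held. They are the GRCm38 reference on the plus strand, and the cells were of another strain. Capitals mark a SOX match, ACAATG or ACAAAG on either strand.
Bmp4, 22 kb upstream, chr14:46412668-46412867: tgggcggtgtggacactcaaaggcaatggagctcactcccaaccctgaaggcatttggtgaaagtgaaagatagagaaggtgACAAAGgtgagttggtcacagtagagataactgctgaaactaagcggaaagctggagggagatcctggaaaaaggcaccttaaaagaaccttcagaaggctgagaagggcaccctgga
Id2, 28 kb downstream, chr12:25068873-25069072: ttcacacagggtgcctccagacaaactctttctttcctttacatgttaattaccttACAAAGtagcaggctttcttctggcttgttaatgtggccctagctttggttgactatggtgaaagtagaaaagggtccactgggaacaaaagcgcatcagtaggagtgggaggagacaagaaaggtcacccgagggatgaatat
Id3, 16 kb upstream, chr4:136127581-136127780: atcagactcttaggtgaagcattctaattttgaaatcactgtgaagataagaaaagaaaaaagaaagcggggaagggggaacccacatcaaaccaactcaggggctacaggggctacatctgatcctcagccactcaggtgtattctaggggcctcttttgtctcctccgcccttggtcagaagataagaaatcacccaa
The Bmp4 and Id2 stretches each held 1 match, at bases 83 and 57, and the Id3 stretch held none. A match was common at this length: 25.8% of the central 200 bases of all 219473 regions had one, 36% of those in SOX2-ON only and 21.3% of those in all 3 lists. None of the 3 stretches held CTTTGAT, a TCF/LEF motif present in 3.34% of all regions, or GGCGCC, a motif bound by SMADs present in 2.65%. A match is a run of letters and not evidence of binding.

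Bmp7, a ligand that pairs with BMP2 or BMP4, had 20, 22 and 23 peaks. Its set of regions was the second largest, 35, in the longest window, 172.3 kb. Its start peak ranked 8195 (SOX2-ON), 12503 (SOX2-OFF) and 11052 (CEpiLC). Of these regions 8 were in all 3 lists, a class that held 27.0% of all regions in the genome. Another 6 were in SOX2-OFF and CEpiLC but not in SOX2-ON (6.92% in the genome), 3 of them over the gene. The best ranked of these, chr2:172866849-172867864, began 148 bp past the end of the gene. It ranked 31279 in SOX2-OFF and 20456 in CEpiLC, so it was just short of strong in CEpiLC and was absent from SOX2-ON. Its central 200 bases, at 172867257-172867456, are printed as the best-ranked stretch that SOX2-ON lacked, and they held none of the motifs.
Bmp7, past the gene end, chr2:172867257-172867456: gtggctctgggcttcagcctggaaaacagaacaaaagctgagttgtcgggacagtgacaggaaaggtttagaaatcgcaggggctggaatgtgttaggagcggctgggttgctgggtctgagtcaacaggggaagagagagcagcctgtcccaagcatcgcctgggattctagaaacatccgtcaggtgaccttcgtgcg

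The antagonist genes differed from each other. Nog, which encodes the BMP-binding protein noggin, had 5, 4 and 17 peaks in the respective lists. Of its 17 regions 11 were in CEpiLC only, with ranks between 42362 and 127125, and chromosome 11 as a whole had many more CEpiLC peaks than other chromosomes. The part of that excess in the Nog count was not tested. The start peak of Nog was close in rank between lists, at 15958, 16846 and 13972. The window of Nog had no region of rank 20000 or better apart from the start, and its best region absent from a list, chr11:89312460-89312616, was in CEpiLC only at rank 42362.

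Chrd, which encodes chordin, had 12, 14 and 15 peaks and lies in a gene-dense window in which 6 of the regions were at starts of other genes. Of its 18 regions, 10 were in all 3 lists. The start peak of Chrd ranked 11930 (SOX2-ON), 15158 (SOX2-OFF) and 16243 (CEpiLC). It also covered a start of Thpo, the neighbouring thrombopoietin gene, so it cannot be assigned to Chrd alone. The best region absent from a list, chr16:20730269-20730720, lay 2632 bp upstream over an exon of Thpo and ranked 38625 in SOX2-OFF and 25610 in CEpiLC.

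The inhibitory SMAD genes had the best ranked starts of the 10 genes in SOX2-ON and SOX2-OFF, and in CEpiLC the start of Bmp2 came between them. Smad6 is known mainly as a brake on BMP signalling and Smad7 as a brake on both the BMP and TGFβ branches. The start peak of Smad6 ranked 3672 (SOX2-ON), 6818 (SOX2-OFF) and 7815 (CEpiLC). That of Smad7 ranked 4358, 6592 and 9493. At each gene the SOX2-ON rank was better than the CEpiLC rank by more than 2-fold and better than the SOX2-OFF rank by less than that.

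In the Smad6 window as a whole SOX2-ON had the fewest peaks. They numbered 17 (SOX2-ON), 23 (SOX2-OFF) and 31 (CEpiLC). Of 36 regions, 11 were in all 3 lists (27.0% in the genome) and 10 in CEpiLC only (20.3%). Those 10 were weak, with ranks between 80243 and 129732 of 130348 peaks. A further 7 were in SOX2-OFF and CEpiLC only (6.92%), 3 of these over the gene. The best of these 7, chr9:63960522-63961205, lay in an intron and ranked 34487 in SOX2-OFF and 26505 in CEpiLC. A region 4159 bp inside the gene, chr9:64016868-64018932, near another Smad6 start, ranked 22225 (SOX2-ON), 17874 (SOX2-OFF) and 10449 (CEpiLC). A region 38428 bp upstream ranked 39210, 19615 and 18222. In these 2 regions SOX2-ON was thus the list with the weakest rank, although the Smad6 start itself was strongest there.

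Smad7 had 22, 22 and 20 peaks, and 14 of its 28 regions were in all 3 lists. A region 24679 bp upstream was strong in each list, with ranks of 9579 (SOX2-ON), 6755 (SOX2-OFF) and 6910 (CEpiLC). The best region of the window absent from a list, chr18:75344310-75345427, lay close to it, 22660 bp upstream, and was held by SOX2-ON at rank 32731 and SOX2-OFF at rank 105117.

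The Id genes, direct BMP targets whose products bind basic helix-loop-helix factors and keep them off DNA, were open at their starts in each list. The Id1 start peak ranked 18736 (SOX2-ON), 20720 (SOX2-OFF) and 21275 (CEpiLC), the weakest of the 10 genes in each list. The SOX2-ON peak lay upstream of the start, and within 500 bp of a start the SOX2-ON rank was 21787, which put Id1 behind both other lists there. Id1 had 20, 19 and 20 peaks, and 13 of its 23 regions were in all 3 lists. The best region that SOX2-ON lacked, chr2:152741670-152742952, was centred 6060 bp downstream of the start and ranked 29199 in SOX2-OFF and 23880 in CEpiLC. The largest shift among the strong regions of the Id1 window was at the start of another gene, Mcts2, which ranked 6162 (SOX2-ON), 6867 (SOX2-OFF) and 15573 (CEpiLC).

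Id2 had 7, 7 and 10 peaks. Its start peak ranked 9218 (SOX2-ON), 10767 (SOX2-OFF) and 10281 (CEpiLC), and a region 2012 bp upstream followed it closely, at 10716, 13807 and 12583. The difference at Id2 lay farther out. A region 27951 bp upstream, chr12:25124251-25125930, ranked 13081 (SOX2-ON), 44128 (SOX2-OFF) and 35882 (CEpiLC). It was present in all 3 lists but strong in SOX2-ON only, and was more than 2-fold better ranked there than in either of the other lists. Its fold enrichment was 3.35 (SOX2-ON), 1.83 (SOX2-OFF) and 1.96 (CEpiLC). On the other side of the gene, chr12:25068447-25069498, centred 28167 bp downstream of the start, was in SOX2-ON only at rank 23325. The window held 5, 3 and 2 strong peaks in SOX2-ON, SOX2-OFF and CEpiLC.

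Id3 had 16, 16 and 20 peaks and a start peak at ranks 12090, 14428 and 14052. Its window was the richest in strong peaks, with 6 (SOX2-ON), 7 (SOX2-OFF) and 9 (CEpiLC). It also holds part of the gene E2f2, and 2 of its regions were at E2f2 starts. These ranked 5821, 4364 and 4297, the best of the window in each list, and 20065, 22286 and 18249. The best region absent from a list, chr4:136127316-136128045, was centred 15816 bp upstream and was in SOX2-ON only at rank 23362. A region 38618 bp upstream had the opposite order, ranking 24009 (SOX2-ON), 15454 (SOX2-OFF) and 10004 (CEpiLC). A region 16563 bp downstream of the start was weaker in SOX2-OFF than in the others, with ranks of 15112 (SOX2-ON), 25527 (SOX2-OFF) and 12203 (CEpiLC). That region was nearer to the start of E2f2, at 12334 bp, so it cannot be assigned to Id3. Distal regions around Id2 and Id3 therefore did not share 1 order of lists.

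The shifted region upstream of Id2 and the promoters of Id2 and Id3 (RefSeq, GRCm38.p6, 250 bases before to 50 after a start, on the gene's strand) are shown to set the region that changed rank beside starts that changed little. Promoter sequences were matched for 5 of the 10 genes, Bmp4, Chrd, Id2, Id3 and Smad6. Capitals mark CTTTGAT in the distal region and GGCGCC in the promoters, each searched on both strands.
Id2, 28 kb upstream, chr12:25124991-25125190: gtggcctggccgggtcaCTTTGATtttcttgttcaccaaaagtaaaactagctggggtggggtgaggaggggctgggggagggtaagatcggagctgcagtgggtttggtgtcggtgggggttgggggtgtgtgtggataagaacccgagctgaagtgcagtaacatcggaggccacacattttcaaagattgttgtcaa
Id2 promoter, chr12:25096043-25096342: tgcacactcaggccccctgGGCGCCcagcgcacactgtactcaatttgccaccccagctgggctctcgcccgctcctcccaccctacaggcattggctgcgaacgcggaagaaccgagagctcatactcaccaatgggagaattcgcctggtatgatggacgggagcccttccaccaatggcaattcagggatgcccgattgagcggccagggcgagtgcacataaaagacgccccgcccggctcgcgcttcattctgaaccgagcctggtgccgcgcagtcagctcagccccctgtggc
Id3 promoter, chr4:136143572-136143871: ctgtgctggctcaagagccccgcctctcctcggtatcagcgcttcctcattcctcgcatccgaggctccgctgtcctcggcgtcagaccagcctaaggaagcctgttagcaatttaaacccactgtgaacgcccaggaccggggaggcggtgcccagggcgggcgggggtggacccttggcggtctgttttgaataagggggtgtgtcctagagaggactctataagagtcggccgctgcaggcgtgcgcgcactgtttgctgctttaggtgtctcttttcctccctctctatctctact
The distal Id2 stretch held 1 CTTTGAT, at base 18, and no SOX match. Among the 5 promoters GGCGCC was in Id2, at base 20, and in Chrd, at base 48, against 11.9% of all 32851 promoters in the table. The longer form in which GGCGCC is followed after 5 bases by GTCT was in none of the 5 and in 0.0731% of all promoters. No SOX match and no CTTTGAT was found in the 5 promoters, against 28.6% and 3.73% of all promoters. Each of the 5 promoters overlapped a peak in every list.

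Over the 10 windows together, 85 of the 204 regions were in all 3 lists, which is 41.7% (95% Wilson interval 35.1 to 48.5, counting error only), against 27.0% of all regions in the genome. The intervals treat regions as independent, although they lie in 10 windows. The share in all 3 lists varied between genes, from 3 of 17 at Nog to 14 of 22 at Id3. A further 26 of the 204 regions were in SOX2-OFF and CEpiLC but not in SOX2-ON, 12.7% (8.85 to 18) against 6.92%. They were spread over 9 genes, with 7 at Smad6 and 6 at Bmp7. These genes had the longest windows, 169 kb and 172.3 kb, against 128.4 kb for the next, Smad7. Stronger peaks gave no single answer. Among the best 50000 ranks of each list the class held 9.28% of the regions here and 9.5% of all. At a −log10 q of at least 5 it held 9.76% and 3.81%. The 22 regions in SOX2-ON only made up 10.8% (7.23 to 15.8) against 16.9%, with at least 1 at each of the 10 genes, and the 14 in SOX2-OFF only made up 6.86% (4.13 to 11.2) against 15.1%. Regions in SOX2-ON and SOX2-OFF only numbered 13, or 6.37%, against 10.5%, and those in SOX2-ON and CEpiLC only numbered 8, or 3.92%, against 3.28%. The 36 in CEpiLC only made up 17.6% (13.0 to 23.5) against 20.3%.

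**Figure D3:**
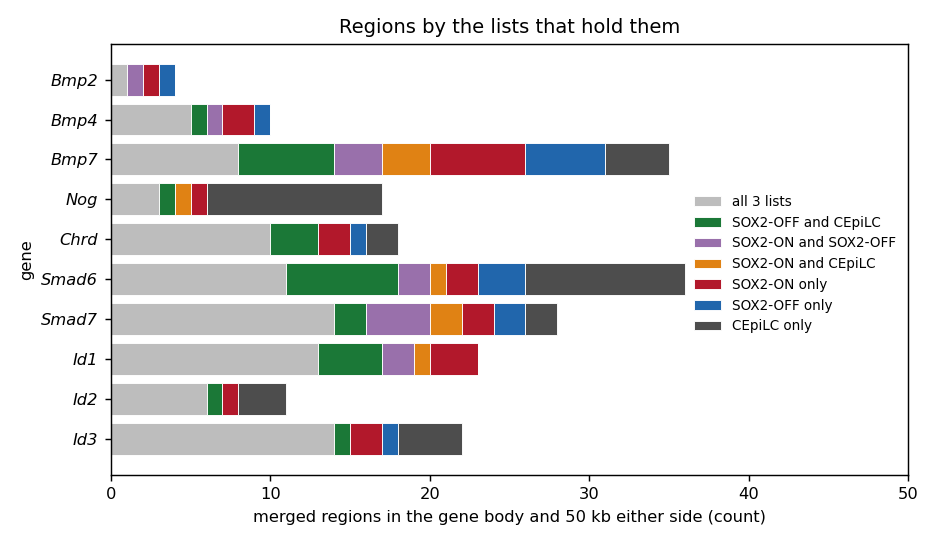
Number of merged regions in the window of each gene, stacked by the peak lists that hold them. Grey segments (all 3 lists) range from 1 region at Bmp2 to 14 at Smad7 and Id3, green segments (SOX2-OFF and CEpiLC) are longest at Smad6 and Bmp7, and dark segments (CEpiLC only) are longest at Nog.

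Without chromosomes 6, 8 and 11, which removes Nog, 43.9% of 187 regions were in all 3 lists against 31.3% of all regions, and 13.4% were in SOX2-OFF and CEpiLC only against 8.59%. The other pair classes lost or turned their difference: 6.95% were in SOX2-ON and SOX2-OFF only against 6.55%, and 3.74% in SOX2-ON and CEpiLC only against 3.83%. Regions in 1 list only stayed below the genome, at 11.2% against 16.6% for SOX2-ON, 7.49% against 13.3% for SOX2-OFF and 13.4% against 19.8% for CEpiLC. Part of the sharing goes with position: 39 regions lay within 1 kb of a start of any gene, and 74.4% of these were in all 3 lists, against 59.4% of such regions in the genome. Of the 165 regions away from starts, 33.9% were in all 3 lists against 20.5%. Of the 39, 24 were at starts of genes other than the 10.

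Regions absent from a list were mostly weak, here as in the genome. Of 119 such regions, 1 had a best rank of 20000 or less (1.51% in the genome), 8 of 30000 or less (6.72% here, 4.68% in the genome) and 24 of 50000 or less (20.2% and 15.9%). Strong peaks in the 10 windows numbered 30 (SOX2-ON), 32 (SOX2-OFF) and 31 (CEpiLC). In SOX2-ON 1 of 30, the peak upstream of Bmp4, was missing from SOX2-OFF, against 5.04% of all strong SOX2-ON peaks, and the same 1 was missing from CEpiLC, against 8.60%. Of the 32 in SOX2-OFF, 0 were missing from SOX2-ON (1.31% of all) or from CEpiLC (1.06%). Of the 31 in CEpiLC, 0 were missing from SOX2-ON (1.42%) or from SOX2-OFF (0.620%). The counts are too small to set apart from these shares.

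At regions in all 3 lists a shift was counted when the rank was at least 2-fold better in 1 list than in another and the better rank was 20000 or less. Within 1 kb of a start, 0 of 18 regions were better in SOX2-ON than in SOX2-OFF (3.91% in the genome) and 0 of 18 the other way (4.72%). Against CEpiLC, 3 of 19 were better in SOX2-ON (12.8%), at Smad6, Smad7 and Mcts2, and 1 of 18 in SOX2-OFF (7.06%), at Mcts2. CEpiLC was better than SOX2-ON in 1 of 19 (13.0%), the region inside Smad6, and better than SOX2-OFF in 0 of 18 (6.55%).

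Away from starts, 1 of 18 regions was better in SOX2-ON than in SOX2-OFF (14.7%) and 1 of 16 better than in CEpiLC (18.7%), in each case the region upstream of Id2. SOX2-OFF was better than SOX2-ON in 0 of 18 (13.2%) and better than CEpiLC in 0 of 17 (7.37%). With ranks by fold enrichment the balance between SOX2-ON and SOX2-OFF turned, to 4 regions better in SOX2-OFF and 1 better in SOX2-ON over all positions, so no direction is drawn from these counts. CEpiLC was better than SOX2-ON in 2 of 16 (22.3%), upstream of Id3 and Smad6, and better than SOX2-OFF in 1 of 17 (8.71%), downstream of the Id3 start. The share of regions that shifted was above that of the genome in 1 of these comparisons only, SOX2-ON over CEpiLC near starts, and rested there on 3 regions.

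**Figure D4:**
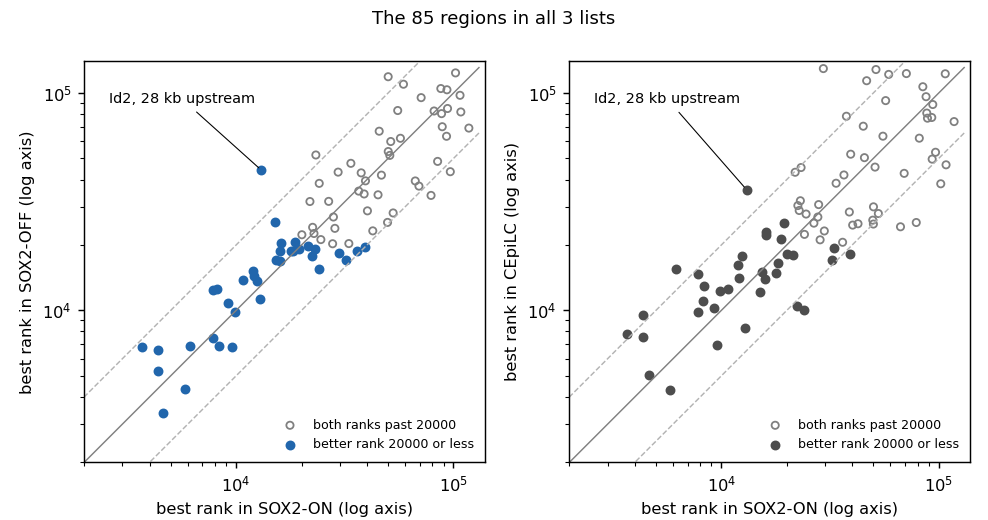
Best rank in SOX2-ON against best rank in SOX2-OFF (left) and CEpiLC (right) for the 85 regions in all 3 lists, on log axes, with a solid line of equal rank and dashed lines at 2-fold. Filled points have a better rank of 20000 or less: most lie within the dashed lines, and the region upstream of Id2 lies outside in both panels.

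Peak width gave no single order of lists at these genes. At the 85 shared regions the median covered length was 1116 bp (SOX2-ON), 1100 bp (SOX2-OFF) and 1080 bp (CEpiLC). Over all 59287 shared regions it was 1006, 1159 and 902 bp, so the larger median of SOX2-OFF over all shared regions was not seen in the median over these 85. SOX2-OFF was still most often the widest, at 35.3% of the member regions against 48.2% of all, followed by CEpiLC at 34.1% against 25.8% and SOX2-ON at 30.6% against 26.3%. At starts the width was that of the single best-ranked peak of each gene. By this measure SOX2-OFF had the largest median, with 1524 bp (SOX2-ON), 2306 bp (SOX2-OFF) and 1768 bp (CEpiLC). Some start regions held 2 peaks in SOX2-ON or CEpiLC and 1 in SOX2-OFF, so these widths are not covered lengths. At Id1 the best-ranked peak was 536, 3139 and 2020 bp wide, against covered lengths of 2341, 3139 and 2407 bp. No order of lists in covered length at starts is drawn from these medians. The best-ranked Bmp2 start peak was 1469, 3109 and 1516 bp wide in the respective lists. Its region held 2 peaks in SOX2-ON and CEpiLC, and the covered lengths there were 2330, 3109 and 2410 bp. The best-ranked Bmp7 start peak was 2288, 3526 and 2223 bp wide. Its region held 2 peaks in CEpiLC, and the covered lengths there were 2288, 3526 and 2842 bp. CEpiLC had the widest best-ranked start peak at Bmp4, with 1725, 2685 and 3279 bp, and at Nog, with 2391, 2284 and 2512 bp. It was also widest at Id3, with 744, 1226 and 1388 bp, and barely so at Smad7, with 1485, 1474 and 1491 bp. SOX2-ON was widest at Smad6, with 1563, 1464 and 1339 bp. The Id2 start peak differed little, being 1011, 1016 and 1010 bp wide.

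The same measures were taken for 31 other genes of the pathway: 6 ligands, 8 antagonists, 6 receptors, 4 SMAD mediators and 7 targets or feedback genes. A start peak was present for 30 of them in SOX2-ON and for 31 in each of the other lists, the exception being the ligand gene Bmp5. Over all coding genes the share was 74.9% (SOX2-ON), 75.8% (SOX2-OFF) and 76.3% (CEpiLC). Of their 623 regions 31.9% were in all 3 lists, against 27.0% of all regions in the genome. A further 10.4% were in SOX2-OFF and CEpiLC only, against 6.92%, so an excess of this class was not particular to the 10 genes. In the windows of the 6 ligand and 8 antagonist genes, 0 of 19 strong SOX2-ON peaks were missing from another list, too few to tell from the genome shares of 5.04% and 8.60%. Over all 31 windows 3 of 61, or 4.92%, were missing from SOX2-OFF and 4 of 61, or 6.56%, from CEpiLC, close to or below those shares. These few peaks lay near Msx2, a homeobox target of BMP signalling, Smad5, a mediator, and Smurf1, a ubiquitin ligase that removes SMADs.

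The pair near Msx2 were centred 8895 bp upstream of the start (rank 11701) and 2100 bp downstream of it (rank 17358), and both were missing from SOX2-OFF and CEpiLC. The Smad5 peak, 28978 bp downstream of the start, ranked 16076 and was missing from both lists as well. The Smurf1 peak, 66970 bp downstream of the start, ranked 17796 and was missing from CEpiLC. Of 64 strong SOX2-OFF peaks, 2 were missing from SOX2-ON, or 3.12% against 1.31% in the genome, near Smad1 (rank 15555), on chromosome 8, and the receptor gene Acvr2b (rank 19069). Of 67 strong CEpiLC peaks, 0 were missing from another list.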

How the data were processed

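Per the labels and the study's methods, the authors trimmed reads (Trim Galore), aligned them to mm10 (BWA), removed mitochondrial reads and called broad peaks in each sample with MACS2 in the nf-core/atacseq pipeline, with a q limit of 0.1. For each peak the deposited files give a score, a fold enrichment over local background, a −log10 p and a −log10 q. The deposited score was not used. All values are the authors'; read totals were not used, so the depth is unknown and values were ranked within lists only. Peaks were joined to GENCODE M21 genes on GRCm38, the build of mm10, with pandas 2.3.3 and bedtools 2.31.1; sequences were read with samtools 1.23.1. Shares have 95% Wilson intervals (scipy 1.17.1), which cover counting error only and treat regions of the same window as independent. Overlap and rank counts were checked on simulated lists. The 10 genes, the 31 other pathway genes and the rules were chosen with earlier results of these data known. Named regions were each gene's best start peak per list, strong peaks missing from a list or otherwise the best region absent from one, and rank shifts among the 5 best regions of a window. The neighbouring regions given beside these were chosen after their values were seen. Broad calling joins sites and sets peak edges loosely, so widths are approximate.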

Additional observations from a re-analysis of the deposited data

How the results depend on the processing

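No paired analysis was possible because there was a single sample in every group. Each of 23 counts or shares was recomputed under the alternatives, which gave 113 values, 78 of them close to the reported one (counts within 1.5 times, shares within the Wilson interval). The share of regions in all 3 lists was 54.9% with −log10 q of at least 5 (41% of all regions), 54.6% in the best 50000 ranks (41.9%) and 30.8% with 500 bp at peak midpoints (22.4%). The excess of regions in SOX2-OFF and CEpiLC only was absent among the best 50000 ranks, at 9.28% against 9.5% of all regions, but not at −log10 q of at least 5, at 9.76% against 3.81%. The Bmp4 peak was missing from both other lists under every overlap rule, under ranking by fold enrichment (rank 7799) and without chromosomes 6, 8 and 11 (rank 9948). With strong set at 10000 ranks the count of missing SOX2-ON peaks was 0 against each list, since its rank is 12482. At 50000 ranks it was 7 against SOX2-OFF and 9 against CEpiLC, for SOX2-OFF peaks 6 against SOX2-ON and 4 against CEpiLC, and for CEpiLC peaks 11 and 4. A looser limit can only add to such counts. Genome shares of missing peaks were taken at the main setting only, so counts at other settings are not read as particular to these genes. Without chromosomes 6, 8 and 11 the count of missing peaks rose to 3 for SOX2-ON against each list, which added the SOX2-ON-only regions of Id2 and Id3, and to 2 for CEpiLC against SOX2-ON, at Id1 and Bmp7. A 50% overlap made 2 SOX2-OFF peaks missing from each other list, at the Bmp2 start and inside Smad6. Both regions were in all 3 lists, with 2 peaks each in SOX2-ON and CEpiLC and 1 in SOX2-OFF. Windows widened to 100 kb on either side made 1 SOX2-OFF peak missing from SOX2-ON. Genes among the 31 with a strong missing peak numbered 5, then 0 at 10000 and 22 at 50000 ranks, alternatives chosen after seeing the data. The share of all coding genes with such a peak was not taken.

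Rank shifts totalled 1 for SOX2-ON over SOX2-OFF, 4 for SOX2-ON over CEpiLC, 0 for SOX2-OFF over SOX2-ON, 1 for SOX2-OFF over CEpiLC, 3 for CEpiLC over SOX2-ON and 1 for CEpiLC over SOX2-OFF. With better ranks up to 50000 they were 2, 7, 2, 5, 8 and 4 in the same order. Genome shares of shifts were taken at the main setting only, so the alternative counts have none beside them. A 3-fold shift left the region upstream of Id2 for SOX2-ON over SOX2-OFF and 0 in the other directions. Ranking by fold enrichment gave 2 for SOX2-ON over CEpiLC, 4 for SOX2-OFF over SOX2-ON, against 1 the other way, which turned the balance between these lists, and 2 for CEpiLC over SOX2-OFF. Without chromosomes 6, 8 and 11 there were 2 for SOX2-ON over SOX2-OFF and 2 for CEpiLC over SOX2-OFF. The CEpiLC peaks in the windows fell from 164 to 96 with −log10 q of at least 2, also chosen after seeing the data. Start peaks ranked best in SOX2-ON at 8 genes, at 7 within 500 bp (without Id1) and at 7 by fold enrichment (without Id2 and Id3 and with Nog). Neither this count nor its alternatives were planned in advance.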
